A study of Mus musculus with 4 samples.

Results

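The sympathetic core transcription factors are 8 genes, Phox2a, Hand1, Hand2, Gata2, Gata3, Isl1, Insm1 and Tfap2b, that specify noradrenergic neurons. Each was read from the array probe set that names that gene and no other, or from the one with the highest mean where there were several. This gave values for 7 of the 8, out of 22180 genes measured in all. Phox2a was not read, since the probe set that names it also names Inppl1. Expression was measured on 1-colour Affymetrix arrays in 4 primary tumours, 1 array per tumour, in a mouse model of neuroblastoma, a tumour of the developing sympathetic nervous system. All 4 tumours form 1 group: they share a mutant Alk, the TH-MYCN transgene, which drives human MYCN from the tyrosine hydroxylase promoter, and a Stat6-/- genotype, on a C57BL\6 x 129Sv/J background. The Alk allele, the age of the mice, their number and any treatment are not stated in the labels. No Stat6-intact tumour is part of these data, which therefore describe levels and their spread between tumours, with no contrast and no p-value. Nothing states that each tumour came from its own animal. With 1 array per tumour, this spread may be partly technical, and how much is not known.

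As background, sympathetic neurons arise from neural crest cells that reach the aorta and receive BMP signals there. Those cells switch on a set of transcription factors that then maintain each other's expression and turn on the enzymes of noradrenaline synthesis. In noradrenergic neuroblastoma the same factors occupy each other's enhancers and form a core regulatory circuit on which the tumour cells depend. Phox2a is a paired-type homeodomain factor, Hand1 and Hand2 are basic helix-loop-helix factors, Gata2 and Gata3 are zinc finger factors, Isl1 is a LIM homeodomain factor, Insm1 is a zinc finger repressor found in neuroendocrine cells and Tfap2b is an AP-2 factor.

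All 7 measured factors were above background in every tumour. The values are log2 units of the deposited RMA signal. The background floor was 6.17, the 95th percentile of the means of 1394 odour and pheromone receptor genes (the olfactory and vomeronasal families), which stand in for unexpressed genes, and 40.5% of all genes had a mean above it. The lowest single value of any of the factors was 7.24, for Insm1 in tumour 3, so each factor was above the floor in each of the 4 tumours. All 7 means also passed 7.14, the 99th percentile of the receptor genes. The signal of a probe set depends on its probes, so the levels of different genes are not ranked here.

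**Figure D1:**
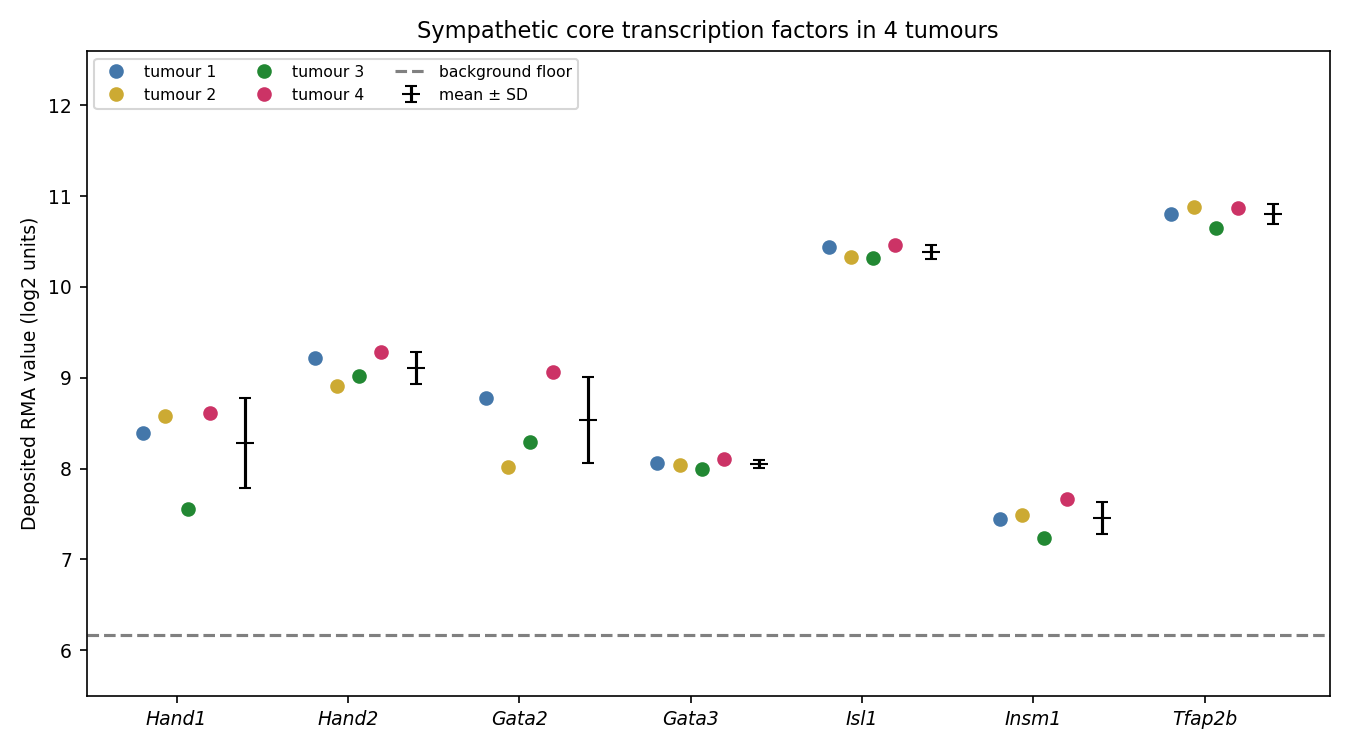
Deposited RMA value (vertical axis, log2 units) of each measured factor (horizontal axis) in tumours 1 to 4 (coloured points), with the mean ± SD over the 4 tumours in black and the background floor as a dashed line. All points lie above the floor of 6.17, and Hand1 and Gata2 spread widest; levels of different genes are not comparable.

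The HAND factors, which act as dimers with E proteins at E-box sequences, differed in how much they varied. Hand1 measured 8.39, 8.58, 7.55 and 8.61 in tumours 1 to 4, a mean of 8.28 ± 0.50 (SD, n = 4). Tumour 3 was low and the other three lay close together. Its range of 1.06 was wider than that of 96.5% of detected genes, and without tumour 3 it was 0.22. Hand2, which is required for sympathetic neurons to acquire their transmitter, measured 9.22, 8.91, 9.01 and 9.29, a mean of 9.11 ± 0.18 (SD, n = 4). Here tumour 2 was lowest and tumour 3 was not set apart. The range of Hand2 was 0.38, wider than that of 44.1% of detected genes. The within-tumour difference of Hand2 minus Hand1 was 0.83, 0.33, 1.46 and 0.68 in tumours 1 to 4, so the balance of the pair shifted by 1.13 log2 units between tumours 2 and 3. Without tumour 3 that shift was 0.50.

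The GATA pair differed more. Gata2 measured 8.77, 8.02, 8.29 and 9.07, a mean of 8.54 ± 0.47 (SD, n = 4). Tumours 1 and 4 were high, and tumours 2 and 3 low. Its range of 1.05, a 2.07-fold difference, was wider than that of 96.3% of detected genes. Without tumour 2 it was 0.78 and without tumour 4 it was 0.75. Gata3, which sympathetic neurons need to survive and to make noradrenaline, measured 8.06, 8.04, 8.001 and 8.10, a mean of 8.05 ± 0.04 (SD, n = 4). Its range of 0.10 was among the narrowest on the arrays, with 2.28% of detected genes narrower. Gata3 minus Gata2 ran from -0.97 in tumour 4 to 0.02 in tumour 2. Gata3 was also read by another probe set, at 4.90, 4.95, 4.85 and 4.90, under the floor. The probe sets therefore disagree on the level of Gata3, with a mean of 6.48 over both, and the range of one that lies under the floor says nothing of how the gene varied.

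Isl1, which is needed for sympathetic precursors to proliferate and differentiate, measured 10.44, 10.32, 10.32 and 10.47 in tumours 1 to 4, a mean of 10.39 ± 0.08 (SD, n = 4). Tumours 1 and 4 were slightly above tumours 2 and 3. Insm1 measured 7.45, 7.49, 7.24 and 7.67, a mean of 7.46 ± 0.18 (SD, n = 4), with tumour 3 lowest and tumour 4 highest. Tfap2b, which contributes to the development of sympathetic ganglia and the adrenal medulla, measured 10.80, 10.88, 10.65 and 10.87, a mean of 10.80 ± 0.11 (SD, n = 4). Tumour 3 was lowest, and tumours 2 and 4 differed by 0.01. The share of detected genes with a narrower range was 5.46% for Isl1, 53.0% for Insm1 and 16.9% for Tfap2b.

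Of the 7 factors, 2 (Hand1 and Gata2) had a range of at least 1 log2 unit, that is 2-fold, where 4.26% of detected genes did. The same 2 were the only ones of the 7 to reach 0.5 log2 units, where 35.1% of detected genes did. The median range was 0.38 over the factors and 0.41 over all detected genes. The count of factors with a range of at least 1 was 1 without tumour 2, without tumour 3 or without tumour 4.

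**Figure D2:**
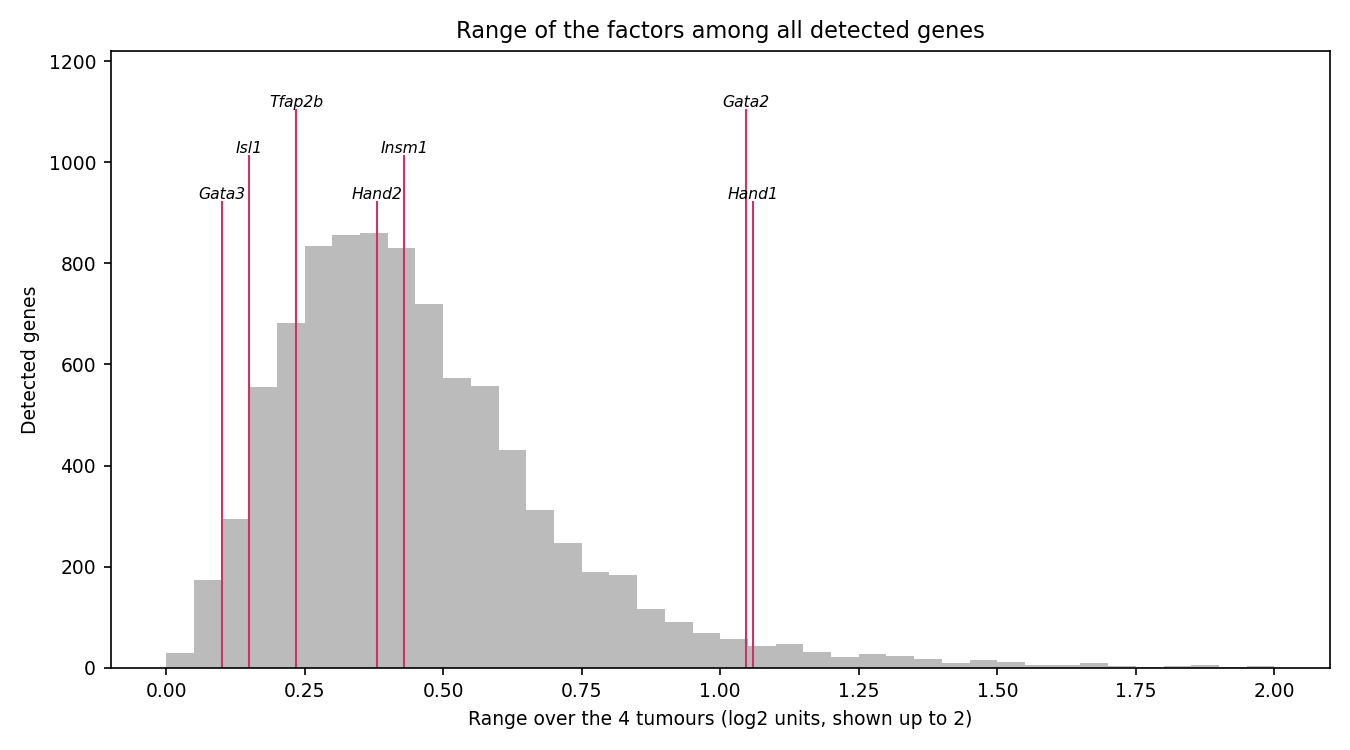
Number of detected genes (vertical axis) by range over the 4 tumours (horizontal axis, highest minus lowest tumour in log2 units, drawn up to 2). Red lines mark the factors: Gata3 (0.10) and Isl1 (0.15) lie at the narrow end, and Gata2 (1.05) and Hand1 (1.06) at the wide end.

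The detected genes as a set were offset between the arrays. The median difference of detected genes from their own mean was 0.12 in tumour 1, 0.04 in tumour 2, -0.09 in tumour 3 and -0.08 in tumour 4. The medians over all probe sets rose instead, at 5.15, 5.19, 5.25 and 5.29 in tumours 1 to 4, so the whole arrays did not share this offset. A value relative to genes of like level was therefore also taken, by subtracting in each tumour the median difference of the detected genes in the same of 20 bins of mean level. On this scale the narrow ranges widened. The range of Gata3 became 0.29, with 39.4% of detected genes narrower, and that of Isl1 0.31, with 44.2% narrower. The range of Tfap2b was 0.25, with 30.7% narrower. The near constancy of Gata3 and Isl1 as deposited thus holds on the deposited scale and not relative to other genes. Hand1 (1.08) and Gata2 (1.22) kept ranges over 1, where 4.27% of detected genes did, and Hand2 reached 0.57, so 3 of the 7 passed 0.5, where 26.3% did.

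The factors shared 1 feature, a higher value in tumour 4. As deposited, 6 of the 7 were highest in tumour 4, where 15.5% of detected genes were, and the exception, Tfap2b, was highest in tumour 2 by 0.01. All 7 were above their own mean in tumour 4, where 32.4% of detected genes were. Relative to genes of like level, all 7 were highest in tumour 4, where 28.9% of detected genes were. The relative difference there was 0.64 for Gata2, 0.45 for Hand1, 0.32 for Insm1, 0.28 for Hand2, 0.16 for Gata3, 0.16 for Isl1 and 0.15 for Tfap2b. The median was 0.28 ± 0.18 (SD over 7 genes) in tumour 4, against 0.00 for all detected genes. In tumours 1, 2 and 3 it was -0.04 ± 0.08, -0.06 ± 0.25 and -0.05 ± 0.24 (SD over 7 genes). As deposited, the step from tumour 4 down to the next tumour was 0.30 for Gata2, 0.18 for Insm1, 0.07 for Hand2, 0.04 for Gata3, 0.03 for Hand1 and 0.03 for Isl1. No tumour was measured more than once, so the error of such a step is not known. Genes of 1 lineage are co-expressed and are not independent replicates.

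**Figure D3:**
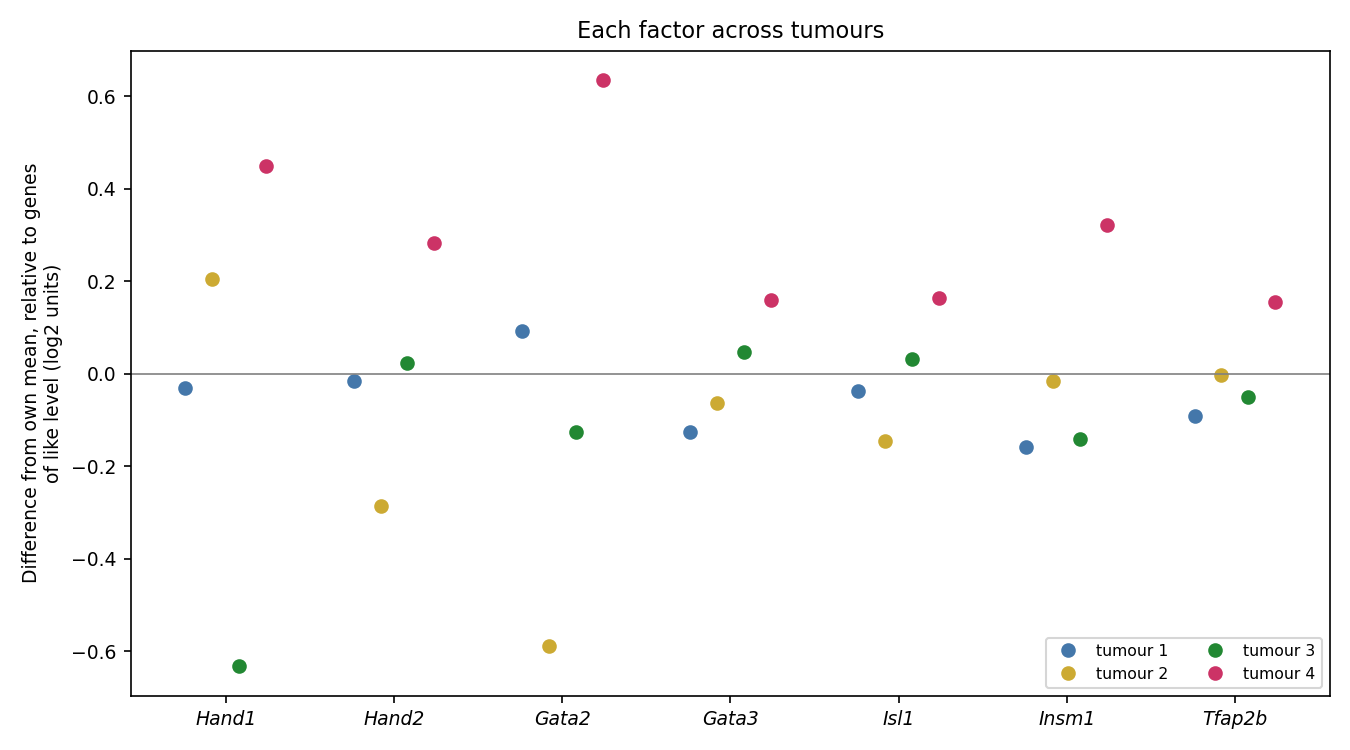
Difference of each factor from its own 4-tumour mean, relative to detected genes of like level (vertical axis, log2 units), for each measured factor (horizontal axis) in tumours 1 to 4 (coloured points). Tumour 4 is the highest point for all 7 factors, from 0.15 for Tfap2b to 0.64 for Gata2, while the lowest point is tumour 3 for Hand1, tumour 2 for Hand2, Gata2 and Isl1, and tumour 1 for Gata3, Insm1 and Tfap2b.

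The low side was not shared. As deposited, 5 of the 7 were lowest in tumour 3, where 36.1% of detected genes were, and 2, Hand2 and Gata2, were lowest in tumour 2, where 17.8% were. Relative to genes of like level, 1 factor, Hand1, was lowest in tumour 3, where 24.5% of detected genes were, 3 were lowest in tumour 1, where 21.5% were, and 3 in tumour 2, where 25.3% were. Hand1 and Gata2, the 2 factors with the widest ranges, parted in tumour 2, where Hand1 was above its mean and Gata2 below. The gap between their differences from their means was 0.81 there, the widest of any pair of the factors. In tumours 1, 3 and 4 both lay on the same side of their means as deposited. Gata3 and Isl1 were closest, within 0.05 in each tumour. These gaps are not scaled to the range, so factors with wide ranges tend to wide gaps and those with narrow ranges to small ones.

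Tumour 4 also differed in other measured ways. Xist, which coats the inactive X chromosome, measured 10.13 there and 3.89 to 3.95 in tumours 1 to 3, and the Y-linked gene Eif2s3y measured 3.90 there and 7.47 to 7.89 in the others. The labels give no sex, and sex and tumour 4 cannot be told apart. Of the detected macrophage markers, 9 of 10 exceeded genes of like level there, where 49.9% of detected genes did, a share that the scale itself fixes, with a median of 0.25 ± 0.18 (SD over members). Of the fibroblast and matrix markers, 1 of 9 did, with a median of -0.37 ± 0.36, and of the cell cycle genes, 0 of 14 did, with a median of -0.14 ± 0.08 (SD over members). Of the chromaffin genes, 4 of 9 did, with a median of -0.30 ± 0.60 (SD over members). Of the Schwann cell genes, 3 of 9 measured were above the floor, too few to stand for the cell type. Of these 3, 2 exceeded genes of like level in tumour 4, with a median of 0.23 ± 0.26 (SD over members). Their part in the higher values of the factors was not tested. In bulk tumours, fewer cells of a type and less RNA per cell cannot be told apart.

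Promoter sequences of 6 of the 8 genes, 7 promoters in all, were taken from RefSeq on GRCm38.p6, and 3 are shown because they belong to members that the results contrast. Gata2 varied widely, its signal being lowest in tumour 2. Hand2 shared that low tumour with a smaller range, and Isl1 stayed nearly level as deposited. Each is the 250 bases before the start of the gene, 5′ to 3′ on the gene's strand, and capitals mark matches to the motifs searched.
Gata2, chr6:88193641-88193890, plus strand: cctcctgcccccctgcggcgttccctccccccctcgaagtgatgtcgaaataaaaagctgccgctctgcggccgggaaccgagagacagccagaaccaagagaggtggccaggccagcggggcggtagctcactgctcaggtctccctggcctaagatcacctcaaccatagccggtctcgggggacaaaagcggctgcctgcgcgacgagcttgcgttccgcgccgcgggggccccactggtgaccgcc
Hand2, chr8:57320733-57320982, plus strand: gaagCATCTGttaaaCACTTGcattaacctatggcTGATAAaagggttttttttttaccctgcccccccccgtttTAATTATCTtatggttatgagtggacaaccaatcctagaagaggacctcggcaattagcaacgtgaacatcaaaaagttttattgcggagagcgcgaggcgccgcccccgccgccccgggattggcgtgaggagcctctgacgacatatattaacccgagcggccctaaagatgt
Isl1, chr13:116309689-116309938, minus strand: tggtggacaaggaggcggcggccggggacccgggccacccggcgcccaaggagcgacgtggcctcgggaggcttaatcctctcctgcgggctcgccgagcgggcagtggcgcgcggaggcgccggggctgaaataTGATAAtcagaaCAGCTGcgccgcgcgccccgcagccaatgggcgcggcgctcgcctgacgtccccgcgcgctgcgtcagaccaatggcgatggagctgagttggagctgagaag
The motifs were the E-box (CANNTG), which basic helix-loop-helix factors such as HAND proteins read, the GATA motif, as AGATAA or as TGATAA, the homeodomain motif (TAATTA) and an AP-2 motif (GCCNNNGGC), each searched on both strands. The Hand2 window holds an E-box of CATCTG and another of CACTTG. It also holds a GATA match of TGATAA, and further on a homeodomain match whose last letters overlap a GATA match on the other strand, which together give the longest run of capitals. The Isl1 window holds 1 GATA match, starting 115 bases before the start, and 1 E-box of CAGCTG, starting 103 bases before it. The Gata2 window shown holds no match to any of these letters. Among the 7 promoters, 3 held an E-box, as did 66.2% of 32841 mouse promoters of this length, 2 held a GATA motif, as did 16.6%, and 1 held the homeodomain motif, as did 4.84%. An AP-2 match was in 2, the other start of Gata2 and the listed start of Gata3 with 3 matches, where 13.7% of all promoters held one. Both of these starts, and that of Tfap2b, lie inside the annotated span of their gene. A match describes letters and is not shown to be a bound site. GC content was 67.2% for Gata2, 49.2% for Hand2 and 71.2% for Isl1, against a median of 52.4%.

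The genes whose pattern over the 4 tumours lay closest to a factor were found by the largest absolute gap, over the 4 tumours, between their differences from their own means. For Gata2, the closest of 8989 detected genes was Slit1, an axon guidance ligand, at 7.60, 6.82, 7.10 and 7.84, with a gap of 0.03. Pdpn, the membrane glycoprotein podoplanin, followed at 8.04, 7.10, 7.49 and 8.24 with a gap of 0.10, and Agtr2, an angiotensin receptor, with a gap of 0.13. For Gata2 only Slit1 lay within 0.10 when the gaps were taken unrounded. For Hand1 the closest were A830009L08Rik, with a gap of 0.09, Trem2, a myeloid lipid receptor, with 0.16 and Pkia, an inhibitor of protein kinase A, with 0.17. These too were low in tumour 3, Trem2 at 6.29 against 7.07 to 7.24 and Pkia at 7.36 against 8.24 to 8.48. A830009L08Rik was under the floor there, at 5.66, so the size of its gap is not known. For Insm1 the closest were Naa15, Phf13 and Vps45, with gaps of 0.01, 0.02 and 0.03. Vps45 was under the floor in tumour 3, at 6.00. In all, 122 genes lay within 0.10 of Insm1. The gap is not scaled to the range, so this count rises as a factor's range narrows, to 717 for Gata3. It therefore does not show how common a pattern is. Over 4 tumours, likeness describes these arrays only.

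Relatives of the factors within their protein families were mostly under the floor. Of 10 measured relatives, 1 was detected, where 40.5% of all genes were. This was Insm2, at 8.39, 8.44, 8.25 and 8.11 in tumours 1 to 4, a mean of 8.30 ± 0.15 (SD, n = 4). It was lowest in tumour 4, as 38.6% of detected genes were as deposited, and Insm1 was highest there. The blood and heart GATA genes Gata1, Gata4, Gata5 and Gata6 had means of 4.64, 5.12, 4.64 and 4.48. The AP-2 genes Tfap2a, Tfap2c, Tfap2d and Tfap2e had means of 3.49, 4.10, 4.50 and 5.64, and Isl2, a motor neuron factor, had 4.20 (n = 4 for each). A gene under the floor is undetermined and is not shown to be absent: with the floor at the receptor median of 4.01, 9 of the 10 passed.

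**Figure D4:**
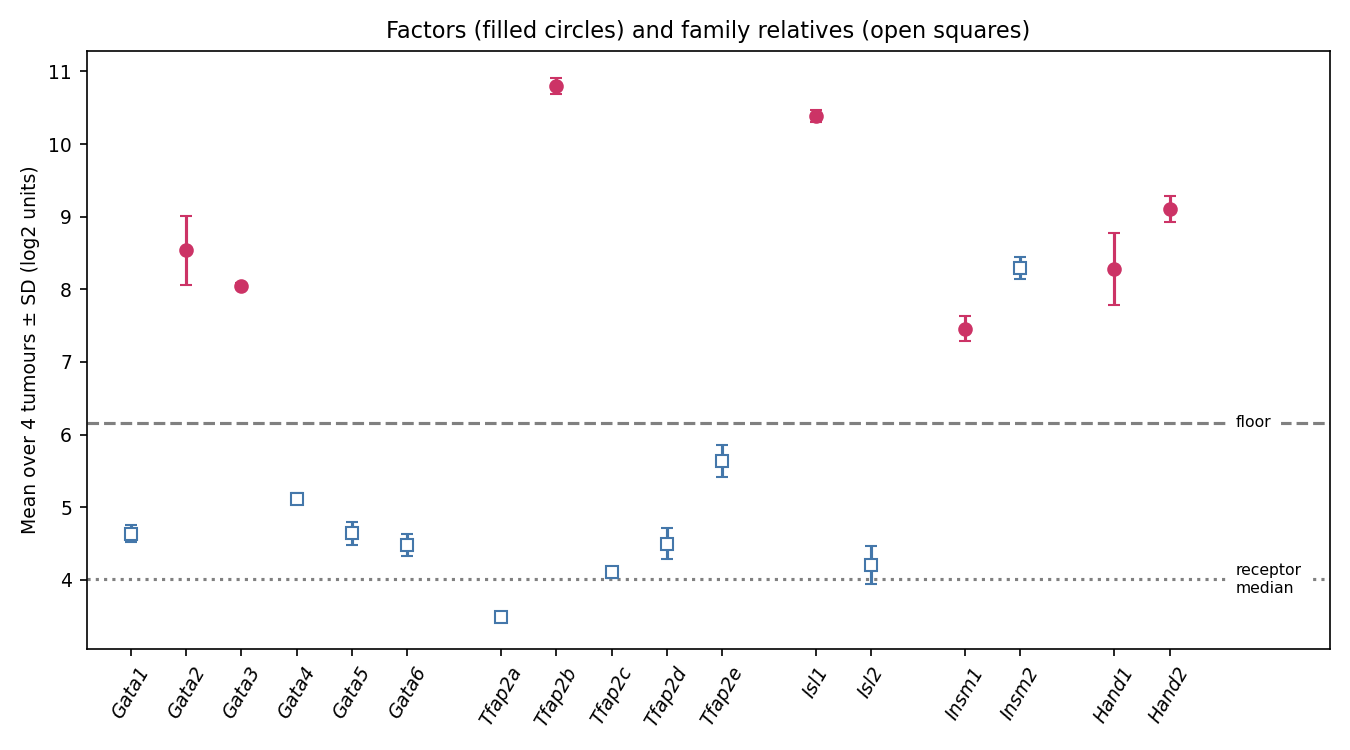
Mean over the 4 tumours ± SD (vertical axis, log2 units) of the factors (filled circles) and the measured relatives of their protein families (open squares), with the background floor (dashed, 6.17) and the median of receptor genes (dotted, 4.01). Of the relatives only Insm2 lies above the floor; levels of different genes are not comparable.

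Other transcription factors of the noradrenergic circuit were mostly detected. Of 18 measured, 14 were detected, where 40.5% of all genes were. Lmo3, a LIM-only protein that binds transcription factor complexes, ran from 7.53 in tumour 2 to 8.60 in tumour 3 and was the only 1 of the 14 to range over 1. Mycn, the mouse gene of the model's oncogene family, measured 6.89 in tumour 4, where Gata2 and Hand2 were also highest, and 6.01, under the floor, in tumour 2; whether its probe set also reads the transgene is not known. Tbx2, a T-box repressor, ran from 7.47 in tumour 3 to 8.27 in tumour 2. Eya1, a transcriptional coactivator, at 12.17 ± 0.10, and Satb1, a chromatin organizer, at 7.68 ± 0.12 (SD, n = 4), varied least. In tumour 4, 9 of the 14 exceeded genes of like level, where 49.9% of detected genes did, and 7 were at their highest on that relative scale, where 28.9% were, with a median of 0.07 ± 0.18 (SD over members), where the core factors were at 0.28. The difference between the lists was not tested.

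Partners and inhibitors of the factor proteins were detected for 19 of 22 genes, where 40.5% of all genes were detected. Ldb1, which bridges LIM homeodomain factors such as Isl1 and GATA complexes, was nearly level as deposited at 9.39 ± 0.06 (SD, n = 4). Relative to genes of like level, Ldb1 ran from -0.14 in tumour 2 to 0.15 in tumour 3. Cited2, a coactivator of AP-2 factors, measured 10.62 ± 0.07 (SD, n = 4). Ldb2, the relative of Ldb1, ran from 7.12 in tumour 4 to 8.02 in tumour 2. Id3, which binds E proteins and so keeps them from HAND-type partners, measured 7.23 in tumour 3 and 5.96, under the floor, in tumour 2, so the size of its range is not known. Hand1 was lowest in that same tumour 3, while Hand2 was lowest in tumour 2. A link of Id3 to either was not tested. In tumour 4, 8 of the 19 exceeded genes of like level, with a median of -0.01 ± 0.17 (SD over members), against 49.9% of all detected genes.

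Noradrenergic and neuronal genes that lie downstream were detected for 13 of 15 members, where 40.5% of all genes were detected. Th, tyrosine hydroxylase, the first enzyme of catecholamine synthesis, measured 11.75, 11.69, 12.01 and 12.05, and Dbh, which makes noradrenaline from dopamine, 10.70, 10.28, 10.51 and 11.07 in tumours 1 to 4. Both were highest in tumour 4 and lowest in tumour 2, as Gata2 and Hand2 were. All 13 exceeded genes of like level in tumour 4, with a median of 0.25 ± 0.16 (SD over members), and 0 of 13 did in tumour 2, with a median of -0.20 ± 0.16. In each of these tumours 49.9% of all detected genes did. Chrna3, a subunit of the ganglionic nicotinic receptor, ran from 7.66 in tumour 3 to 8.97 in tumour 4. The transporters Slc6a2, for noradrenaline, and Slc18a1, for monoamines into vesicles, were lowest in tumour 3, as Hand1 was, Slc6a2 at 7.01 and Slc18a1 at 6.01, the latter under the floor, but highest in tumour 1 (8.22 and 7.08). Maoa, which breaks down monoamines, at 8.70 ± 0.03, and Gap43, a growth cone protein, at 10.05 ± 0.10 (SD, n = 4), varied least as deposited.

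The BMP input of the lineage was detected in part, for 8 of 11 genes, where 40.5% of all genes were detected. Of the 11, 4 passed the floor at the 99th percentile. Bmpr1b, a BMP receptor, measured 7.24, 6.26, 6.35 and 7.66, high in tumours 1 and 4 as Gata2 was, with a range of 1.40. Bmp7, a ligand, measured 6.87, 7.20, 7.18 and 5.94 in tumours 1 to 4, the last of these under the floor. A link of Bmpr1b or Bmp7 to Gata2 was not tested. Of the 8 detected BMP genes, 3 exceeded genes of like level in tumour 4, where 49.9% of all detected genes did. The median of the 8 there was -0.03 ± 0.44 (SD over members). Bmpr2, the type II receptor, ran from 9.58 to 10.09, while Bmpr1a (8.09 ± 0.09) and Acvr1 (6.43 ± 0.07, SD, n = 4) varied least as deposited.

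**Figure D5:**
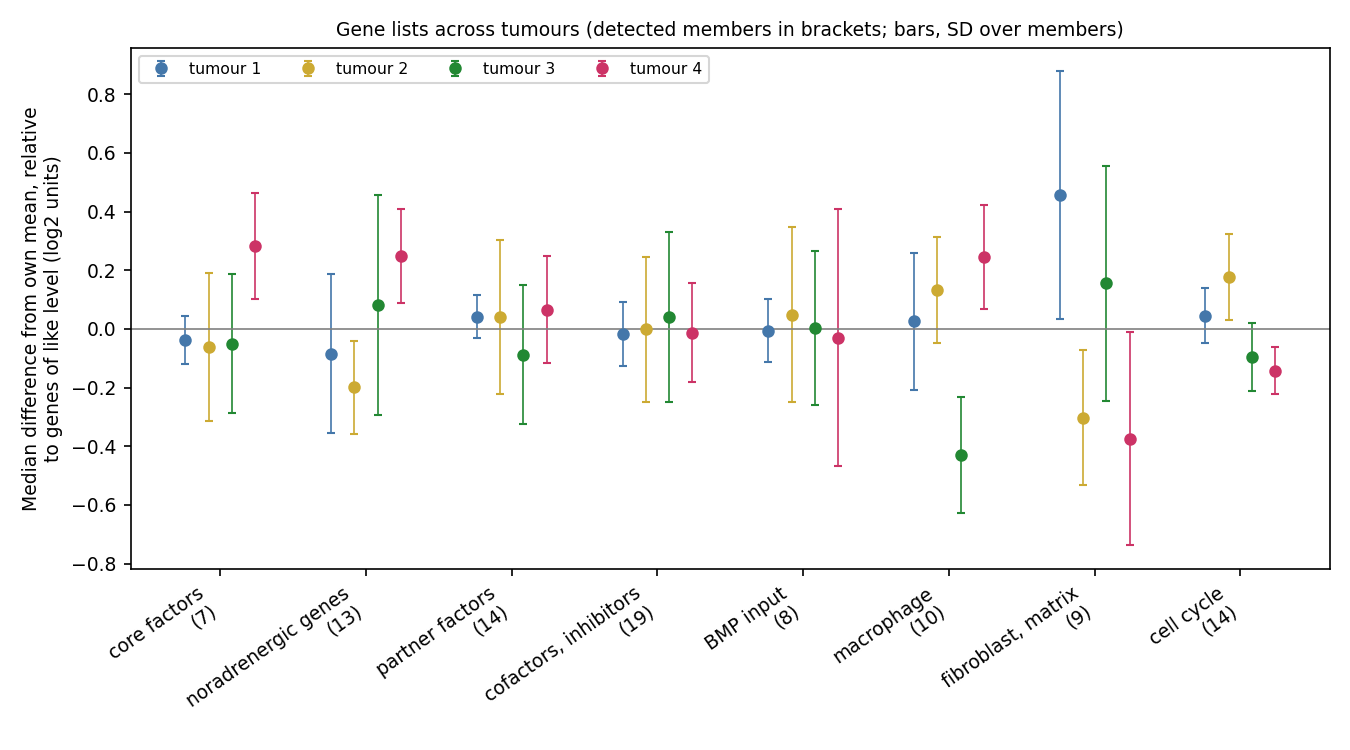
Median over the detected members of each list of the difference from their own mean, relative to genes of like level (vertical axis, log2 units), in tumours 1 to 4 (coloured points), with bars of 1 SD over members and the number of detected members in brackets. Of the 8 lists drawn, the core factors (0.28), noradrenergic genes (0.25) and macrophage markers (0.25) lie farthest above 0 in tumour 4, and fibroblast markers (-0.37) and cell cycle genes (-0.14) farthest below.

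Markers of other cells and states were read beside the factors. The labelled tissue is a muscle of the neck, yet 0 of 12 skeletal muscle genes were detected, with means from 3.63 to 5.86. Of all genes, 40.5% were above the floor, a share that belongs beside each of the counts that follow. Detected members numbered 4 of 13 for the mesenchymal state, including Fn1, fibronectin, and Vim, vimentin, 3 of 9 for Schwann cells, where Fabp7 ran from 6.49 in tumour 3 to 9.54 in tumour 1, 9 of 11 for chromaffin cells, 9 of 11 for fibroblasts, 10 of 15 for macrophages, 2 of 10 for endothelial cells, 1 of 10 for T and NK cells and 14 of 14 for the cell cycle. In the chromaffin list Vip ran from 6.69 in tumour 2 to 9.85 in tumour 3, and Pnmt, the adrenaline enzyme that marks chromaffin cells, had a mean of 4.35, under the floor. Macrophage markers were lowest in tumour 3, where 1 of 10 was above genes of like level, as were 49.9% of all detected genes, and the median was -0.43 ± 0.20 (SD over members). Hand1 was also lowest in tumour 3, and the part of those cells in its value was not tested.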

How the data were processed

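Total RNA of 4 tumours was labelled with biotin and hybridised to Affymetrix arrays, per the labels' protocols. The authors deposited 1 log2 value per probe set and tumour, made with RMA and Partek per the submitters' processing notes, with versions and settings not given in the sources used here. The log base is not stated and was taken as 2, since values run from 2.47 to 13.6. The number of arrays limits the precision. The largest share of values identical between 2 arrays was 0.215%, so each array counts as 1 sample, numbered in the order of its record.

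Of 41345 probe sets, the platform annotation listed 25335, and the 23521 with 1 gene were used; 1814 name several genes and 16010 are not listed. Symbols were updated by gene identifier through RefSeq (GRCm38.p6), which matched 23328. For 1082 genes with several probe sets the highest mean was taken. No detection calls were used, and 8989 genes passed the receptor floor. The members and all 15 lists were chosen with earlier results of these data known. Genes named are the members, Th and Dbh, up to 3 detected genes per list with the widest and 2 with the narrowest range, and the 3 genes closest to each of the 3 widest members. Relatives under the floor, Pnmt, Xist, Eif2s3y and genomic neighbours were named after their values were seen. The procedures were tested on simulated data. Alternatives were the mean of probe sets, another quantile normalization, the scale relative to genes of like level, other floors, and leaving out each tumour. Python 3.11.15, pandas 2.3.3 and numpy 2.4.6 were used.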

Additional observations from a re-analysis of the deposited data

Results flagged for a closer look

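Of 59 named genes screened for a tumour far from the other three, 1 passed Dixon's 95% limit for 4 samples, which chance passes in about 1 in 20 groups. This was Gal, galanin, a neuropeptide of the chromaffin list, with a ratio of 0.931: it measured 9.56 in tumour 3 and 7.01 to 7.18 in the other tumours. None of the 7 measured core factors passed; Hand1 came closest with a ratio of 0.788, its low value being that of tumour 3. The screen covered only the members and the genes named from the lists by their range, with Th and Dbh. Xist, Eif2s3y and the other list genes were outside it, so Gal is not the only such gene. Prox1, a detected partner factor that was not screened, had a ratio of 0.906, with 8.61 in tumour 3 as its lowest value.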

How the results depend on the processing

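All 7 measured factors were above the floor with the mean of probe sets, after a further quantile normalization and against the stricter floor, the 99th percentile of receptor genes. The lower floor at the receptor median and leaving out a tumour could not bring the count down, since no single value was under the floor. The number highest in tumour 4 was 6 to 7 under every alternative run that kept tumour 4. With a further quantile normalization the number highest in tumour 2 was 0, the number lowest in tumour 1 was 1 and the number lowest in tumour 3 was 3; relative to genes of like level these were 0, 3 and 1. The cause was not tested. Leaving out 1 tumour at a time, the number with a range of at least 1 was 1 to 2 and with at least 0.5 also 1 to 2, the number highest in tumour 1 was 0 to 4 and in tumour 2 1 to 3, and the number lowest in tumour 1 was 0 to 3 and in tumour 2 2 to 4; the highest of these counts for the highest tumour came without tumour 4 and for the lowest tumour without tumour 3. Of 49 alternative values for the level of a factor, 48 moved by less than its SD, and the exception was Gata3 with the mean of its probe sets (6.48). Of 49 for a range, 9 moved by more. The Gata3 range was 0.21 after a further quantile normalization. Of 112 alternative counts of detected genes in the other lists, 13 moved by over 1.5 times, all by another floor except the endothelial count without tumour 1. No paired analysis was possible because there is 1 group.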

Other observations

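Genes that lie next to the factors in the genome were read as well. Among the 3 genes on each side of each measured factor in the RefSeq order, 16 had a value, all chosen after the values were seen. Of these, 9 were above the floor, where 40.5% of all genes were. Hdnr, a long non-coding RNA gene near Hand2, measured 7.61, 7.35, 7.62 and 7.27 in tumours 1 to 4. Its lowest value was in tumour 4, as for 38.6% of detected genes as deposited, and Hand2 was highest there. 4930412O13Rik, a long non-coding RNA gene next to Gata3, measured 6.61, 6.27, 6.50 and 6.41. Sap30l, a corepressor gene next to Hand1, measured 7.82 in tumour 3, where Hand1 was lowest, and 7.59 to 7.93 in the others. Eefsec, near Gata2, measured 8.57, 8.51, 7.97 and 8.18 in tumours 1 to 4. Its order in tumours 2 and 4 was opposite to that of Gata2, and its order in tumours 1 and 3 was the same. Tfap2d, the AP-2 gene near Tfap2b, had a mean of 4.50 and was under the floor.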
